A study of Mus musculus with 15 samples.

Results

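This section compares the DNA methylation of the autosomes in adult and newborn mouse kidney. Methylation was measured by reduced representation bisulfite sequencing (RRBS), in which a restriction digest selects CpG-rich fragments and bisulfite conversion separates methylated from unmethylated cytosines. The adult group was 3 kidney samples of wild-type C57BL/6 mice at 6 weeks. The newborn group was 3 C57BL/6 control samples at postnatal day 0 (P0) with the genotype Dnmt1 f/f, floxed alleles listed without a Cre driver. These are 6 of the 15 samples of a study on Dnmt1, the maintenance DNA methyltransferase. The 3 P0 knockouts (KO; Six2Cre Dnmt1 f/f), in which the Six2 promoter drives Cre in nephron progenitors, appear below as values only.

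Chromosomes 1 to 19 were divided into windows of 1000 bases. A window was kept when at least 3 cytosine positions had at least 10 methylation calls in each of the 6 samples, and its methylation is the percent of its summed calls that were methylated. The 2 cytosines of a CpG, on opposite strands, count as separate positions. The rule kept 83919 windows with 574496 positions, out of 85499 windows on all chromosomes. Windows were chosen by coverage alone, so the measured percentages played no part in the choice. A window held a median of 5 positions, and the median window had 154 to 357 calls per sample.

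Age, the floxed alleles and the shares of calls on chromosomes X and Y, which may follow sex, all differ between the groups, and their effects cannot be told apart. The sources do not say that the replicates are separate animals, so the p-values measure only the spread between these samples. The labels name cells positive for Six2, whereas the extraction protocol names the whole organ. In the P0 control RNA libraries, all 18 endothelial, all 20 podocyte, all 19 stromal and 44 of 45 proximal tubule marker genes reached 1 CPM (gene counts scaled to the library total) in every library, beside 15 of 16 nephron progenitor genes. The samples are therefore described as kidney tissue, and adult RNA was not analysed here. In tissue, a change in the share of a cell type and a change of methylation within cells cannot be told apart.

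DNA methylation at CpG sites is copied at cell division by DNMT1, set by DNMT3A and DNMT3B, and removed through oxidation by TET enzymes. CpG-dense gene starts are mostly unmethylated, while gene bodies and intergenic DNA are mostly methylated. Enhancers of a differentiated cell type tend to lose methylation as they come into use, and developmental regulators kept silent by Polycomb proteins often gain some methylation in adult tissue. In mouse, nephrons are still being formed at birth, and tubules take on their adult transport functions over the following weeks.

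The stretches below show where such differences lay at gene starts. Each is the 250 bases before the RefSeq transcription start (GRCm38.p6), 5′ to 3′ on the strand of the gene. Capitals mark measured cytosines, a C for one on the printed strand and a G for one on the opposite strand. A1cf and Dao had the largest decreases, and Alpk3 and Tacc2 the largest increases, among called windows near a start with at least 5 measured positions in these bases and no overlap between the groups. Slc3a1, Hoxa5 and Hoxd12 stand for the gene lists described later. This choice was made after the values were seen.

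A1cf, chr19:31868563-31868812, plus strand, 7 measured positions: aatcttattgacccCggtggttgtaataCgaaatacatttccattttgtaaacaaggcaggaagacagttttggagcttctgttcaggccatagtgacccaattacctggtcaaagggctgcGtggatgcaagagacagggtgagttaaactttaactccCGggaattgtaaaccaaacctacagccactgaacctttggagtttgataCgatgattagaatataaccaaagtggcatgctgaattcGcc
Dao, chr5:114004558-114004807, plus strand, 7 measured positions: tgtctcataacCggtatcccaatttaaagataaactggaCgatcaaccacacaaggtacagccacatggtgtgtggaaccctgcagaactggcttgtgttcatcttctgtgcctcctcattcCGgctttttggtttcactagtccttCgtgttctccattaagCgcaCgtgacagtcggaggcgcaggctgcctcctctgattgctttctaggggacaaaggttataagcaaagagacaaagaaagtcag
Slc3a1, chr17:85028097-85028346, plus strand, 2 measured positions: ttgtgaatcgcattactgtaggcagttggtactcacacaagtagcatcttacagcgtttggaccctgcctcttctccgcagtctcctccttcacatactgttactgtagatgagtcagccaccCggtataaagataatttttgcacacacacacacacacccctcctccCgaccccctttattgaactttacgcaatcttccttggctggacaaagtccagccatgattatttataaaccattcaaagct
Alpk3, chr7:81057350-81057599, plus strand, 5 measured positions: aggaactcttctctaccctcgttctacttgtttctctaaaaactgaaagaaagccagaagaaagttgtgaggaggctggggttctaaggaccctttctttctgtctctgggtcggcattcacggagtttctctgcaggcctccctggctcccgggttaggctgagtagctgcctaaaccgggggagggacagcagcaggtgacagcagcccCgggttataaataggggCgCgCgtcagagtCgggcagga
Tacc2, chr7:130692368-130692617, plus strand, 5 measured positions: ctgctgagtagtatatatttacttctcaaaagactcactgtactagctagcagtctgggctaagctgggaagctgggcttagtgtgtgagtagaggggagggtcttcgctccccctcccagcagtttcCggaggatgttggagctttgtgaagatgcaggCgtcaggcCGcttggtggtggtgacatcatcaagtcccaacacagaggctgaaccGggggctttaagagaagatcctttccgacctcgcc
Hoxa5, chr6:52204588-52204837, minus strand, 9 measured positions: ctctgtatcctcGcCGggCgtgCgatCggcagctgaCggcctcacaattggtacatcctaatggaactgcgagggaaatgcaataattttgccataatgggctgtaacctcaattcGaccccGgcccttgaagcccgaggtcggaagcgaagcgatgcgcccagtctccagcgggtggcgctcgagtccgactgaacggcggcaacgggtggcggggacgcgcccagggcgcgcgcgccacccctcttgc
Hoxd12, chr2:74674763-74675012, plus strand, 7 measured positions: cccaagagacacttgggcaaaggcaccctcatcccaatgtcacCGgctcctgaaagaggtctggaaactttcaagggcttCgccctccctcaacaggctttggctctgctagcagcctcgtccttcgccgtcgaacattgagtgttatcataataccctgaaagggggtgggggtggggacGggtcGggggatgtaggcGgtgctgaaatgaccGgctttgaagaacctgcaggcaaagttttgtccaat

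Across the capital letters before A1cf, which encodes an RNA-binding cofactor of messenger RNA editing, mean methylation was 73.4%, 67.1% and 83.1% in the controls and 33.7%, 32.4% and 32.8% in the adults. Before Dao, the peroxisomal D-amino acid oxidase of the proximal tubule, it was 75.9%, 80.3% and 76.1% in controls and 55.9%, 41.7% and 40.4% in adults. Before Slc3a1, a subunit of the cystine transporter, the 2 measured positions averaged 92.9%, 78.7% and 64.3% in controls and 20%, 34.7% and 24.2% in adults. At these 3 starts every adult lay below every control, which for A1cf and Dao was a condition of the choice.

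The increases began from low levels. The measured cytosines before Tacc2, which encodes a centrosomal coiled-coil protein, averaged 0.833%, 0.851% and 0.377% in controls and 39.6%, 33.2% and 36.9% in adults. Before Alpk3, an alpha kinase of heart muscle, they averaged 12%, 13% and 23.1% in controls and 57.8%, 54.4% and 61.3% in adults. Before Hoxa5, a homeobox gene of axial patterning, the values were 6.90%, 2.38% and 1.73% in controls and 13.3%, 23.4% and 19.1% in adults. Before Hoxd12, a limb and posterior patterning gene, they were 5.10%, 5.22% and 5.16% in controls and 19.1%, 19.03% and 18.2% in adults. The groups did not overlap at any of these 4 starts, which for Tacc2 and Alpk3 was a condition of the choice.

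The first question was how far the methylation of the adult kidney differed from that of the newborn. Each window was tested with a quasi-binomial model across the 6 samples, with Benjamini-Hochberg adjustment over all windows, and was called where the adjusted p fell below 0.05 while the group means lay 10 or more percentage points apart. Of all windows, 4169 were lower in adults (4.97%) and 5055 were higher (6.02%), 9224 in all (11%). The other 89.0% did not pass. All 3 adults lay beyond all 3 controls in 3936 of the lower and 4854 of the higher windows, which were chosen by a test on the same values.

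The lower windows went from a mean of 70.3% in controls to 47.5% in adults, and the higher ones from 35.5% to 57.3%. The median difference was -20.3 points among lower windows and 19.7 points among higher windows. Differences of at least 40 points were found in 315 lower and 220 higher windows. Windows under 20% in every control and at 50% or more in every adult numbered 38, and 19 went the opposite way. All positions differed in the same direction in 73.3% of lower and 71.2% of higher windows, which were themselves chosen by the size of their summed difference.

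The mean over all windows barely moved. It was 54.8%, 54.8% and 54.5% in the controls and 55.2%, 54.7% and 54.5% in the adults, so the groups overlapped. The means were 54.7% ± 0.211 and 54.8% ± 0.326 (SD, n = 3 each), a difference of 0.085 points (two-sided exact permutation p 0.8). With 3 samples against 3 the smallest p this test can give is 0.1. Weighted by calls the difference was -6.91 points, and -3.18 points with the 27 windows that hold the deepest positions left out, both with an exact permutation p of 0.1.

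**Figure D1:**
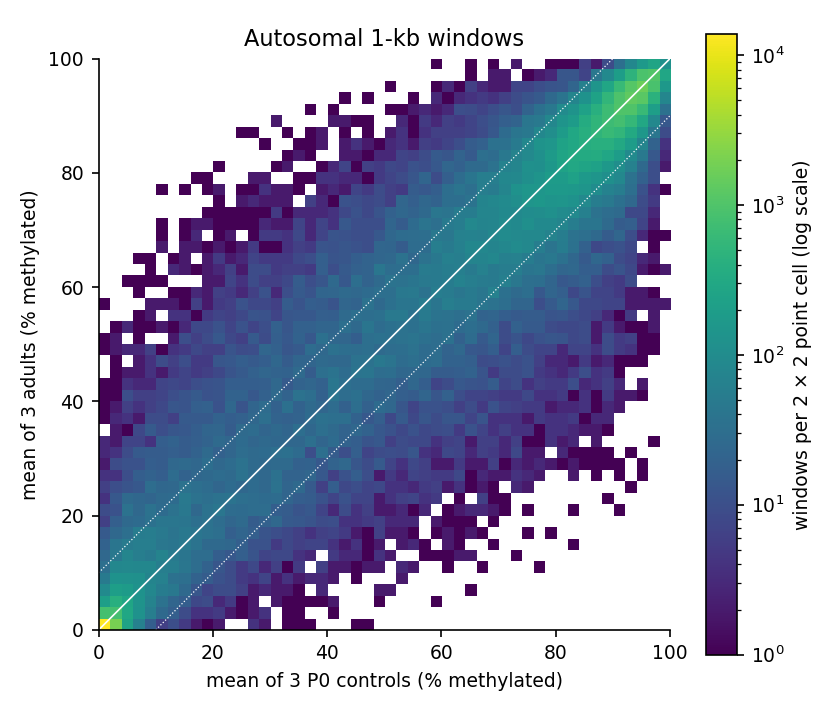
Each cell counts autosomal windows by their mean methylation in the 3 P0 controls (x axis, percent) and in the 3 adults (y axis, percent), on a log color scale. The solid line marks equal values and the dotted lines a difference of 10 points; the 83919 windows cluster near the solid line at both ends and spread away from it at middle levels.

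Windows of intermediate methylation became more common. The share of windows from 20% to under 80% was 28.9%, 28.5% and 28.7% in controls and 30.7%, 31.5% and 31.5% in adults. Every adult lay above every control, with 2.54 points between the means. The share under 20% went from 30.2% ± 0.249 to 28.8% ± 0.124, and the share at 80% or more from 41.1% ± 0.373 to 39.9% ± 0.562 (SD, n = 3 each). Each of these 3 shares had an exact permutation p of 0.1, adjusted to 0.2 over 20 comparisons of class means and shares.

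The calls followed the level of the window. Among windows with a mean of 20% to 50% over the 6 samples, 23.4% were higher and 12.7% lower in adults. From 5% to 20%, 15.2% were higher and 3.67% lower. From 50% to 80% the balance was turned, with 13.1% lower and 10.6% higher, and from 80% to 90% 3.81% were lower and 2.53% higher. The class mean went from 9.96% to 13.02% in the windows of 5% to 20%, and from 33.9% to 37.2% in those of 20% to 50%. The groups did not overlap in either class (exact permutation p 0.1, adjusted 0.2). These classes are set by the same values, and the limits of 0% and 100% bound the difference that a window near them can show.

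In the 19072 windows under 5%, the mean was 1.52%, 1.496% and 1.44% in controls and 1.04% in each of the 3 adults. None of these windows could be called, because a mean this low keeps the group means closer together than a call requires. The percent of methylated calls on mitochondrial DNA, read in the same libraries, was 1.67% ± 0.0242 in controls, 1.64% ± 0.107 in KO and 0.413% ± 0.0209 in adults (SD, n = 3 each). Its part in the difference at unmethylated windows was not tested.

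**Figure D2:**
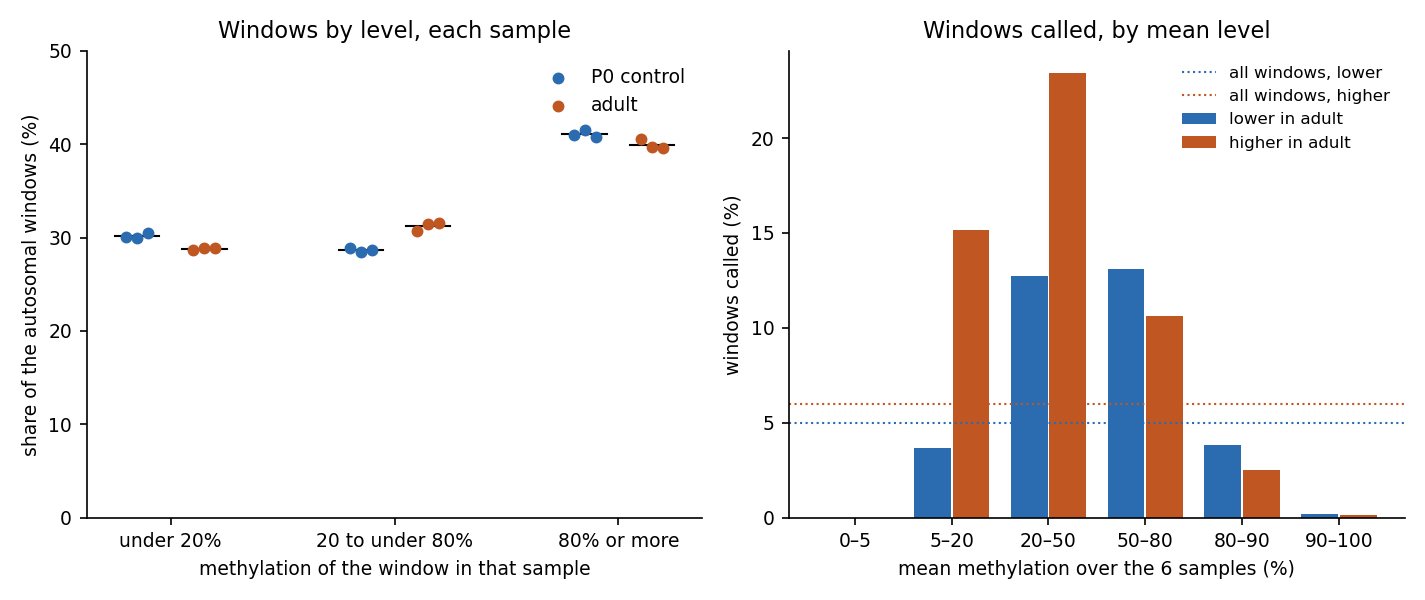
Left, the share of windows (percent) at each methylation level, with 1 point per sample and a bar at the group mean; adults lie below controls at both ends and above them between 20% and 80%. Right, the percent of windows called lower (blue) or higher (orange) in adults by the mean level over the 6 samples, with dotted lines at 4.97% and 6.02% for all windows; increases lead from 5% to 50% and decreases from 50% to 90%.

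Calls were rarest near gene starts. Of the 17891 windows within 1000 bases of a start, 2.48% were lower and 3.06% higher, and their mean was 14.8% in controls and 14.4% in adults. Of the 42842 other windows inside genes, 6.18% were lower and 7.29% higher, and their mean went from 64.0% to 64.2%. Outside genes the shares were 4.65% and 5.97% of 23186 windows. Among windows near starts, those whose start had a CpG ratio (observed over expected) of 0.6 or more were called lower in 1.44% and higher in 1.47%. Where the ratio was under 0.3, 7.01% were lower and 8.40% higher. The control means of these start classes were 6.62% and 51.7%. Windows that average under 5% cannot be called, and the shares were not compared at a like level.

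The gene lists differed in the direction of their calls. Hox genes, stromal genes and early nephron regulators held mostly increases, and proximal tubule genes mostly decreases. A window was assigned to a list when it lay in a gene of the list or within 1000 bases of its start. Some genes stand in several lists, and their windows count in each. Each count is read beside the background of 4.97% lower and 6.02% higher, and counts near starts beside that of start windows, 2.48% and 3.06%.

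**Figure D3:**
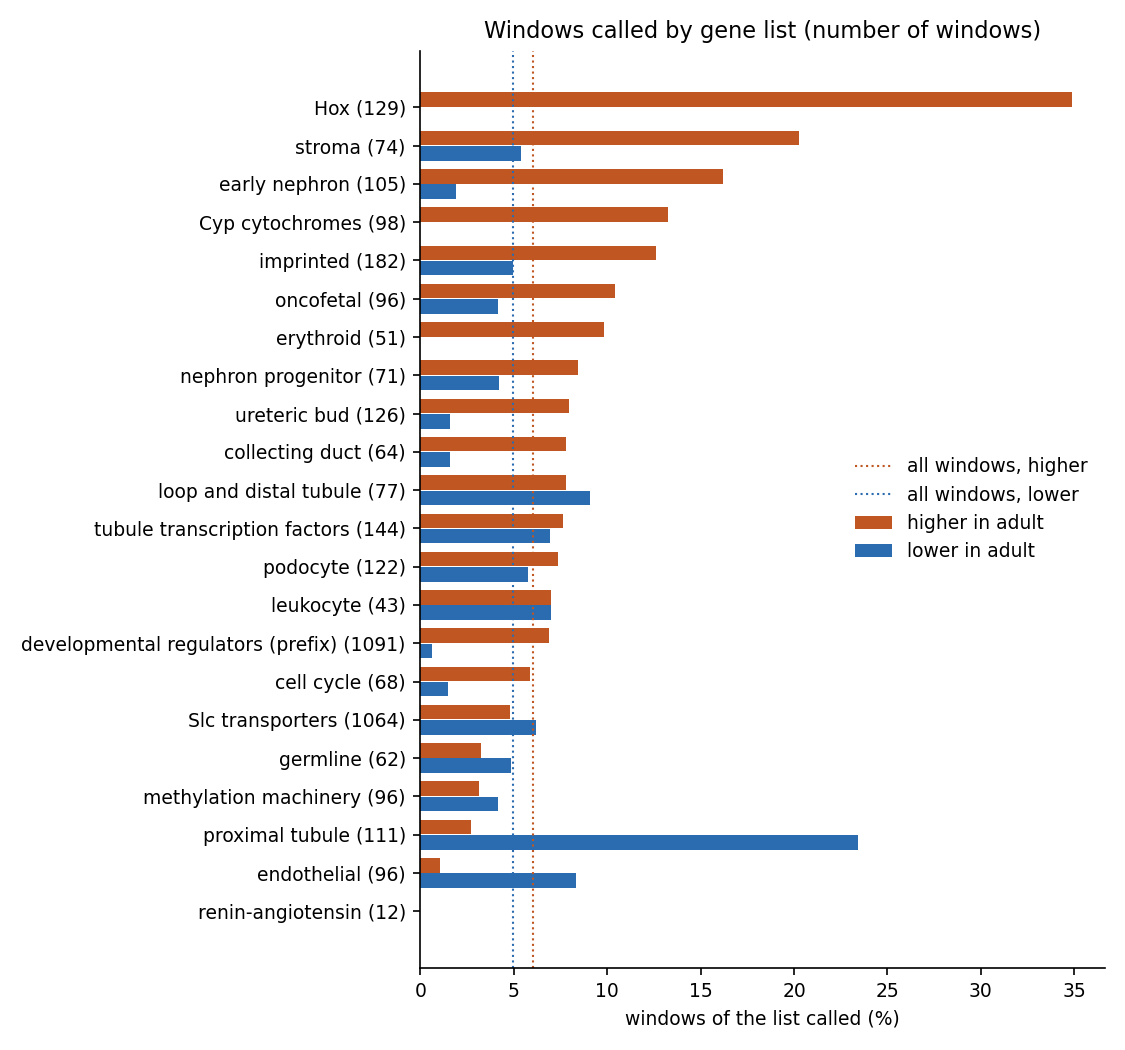
Percent of the windows of each gene list that were lower (blue) or higher (orange) in adults, with the number of windows in parentheses and dotted lines for all windows. Hox genes reach 34.9% higher and 0 lower, and proximal tubule genes 23.4% lower and 2.7% higher.

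Hox genes encode homeobox transcription factors that pattern the body axis, and the Hox11 members are needed to form the kidney. They were measured in 129 windows of 38 genes, of which 45 windows (34.9%) in 22 genes were higher in adults and 0 were lower. The Hox windows averaged 8.39% in controls and 19.01% in adults, and 102 of 129 were above 0 in difference, with a median of 4.67 points against -0.37 points over all windows. The share was also high at a given level. Among Hox windows of 5% to 20%, 21 of 42 were higher, against 15.2% of all windows at that level. Among those of 20% to 50%, 21 of 27 were higher, against 23.4%. Of the 42 Hox windows near a start of a Hox gene, 11 were higher.

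Of the 4 clusters, HoxD had the most calls, 21 of 39 windows, and HoxC had 13 of 27. HoxD means were 12.3%, 12.9% and 11.2% in controls and 24.7%, 25.9% and 27.5% in adults. HoxC means were 7.88%, 9.69% and 8.61% in controls and 24.9%, 23.2% and 23.7% in adults. HoxA held 8 higher windows of 32, with means of 4.39%, 4.34% and 4.46% in controls and 13.8%, 12.8% and 12.5% in adults. HoxB held 3 of 31, with means of 7.75%, 7.71% and 7.07% in controls and 10.6%, 13.1% and 12.5% in adults. In all 4 clusters the groups were apart. Where the KO samples could be read as well, their cluster means were 3.93% in HoxA, 4.29% in HoxB, 7.38% in HoxC and 7.10% in HoxD. Over the same windows the controls averaged 4.797%, 4.51%, 9.85% and 8.75%, and the adults 14.4%, 6.76%, 22.5% and 20.9%.

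**Figure D4:**
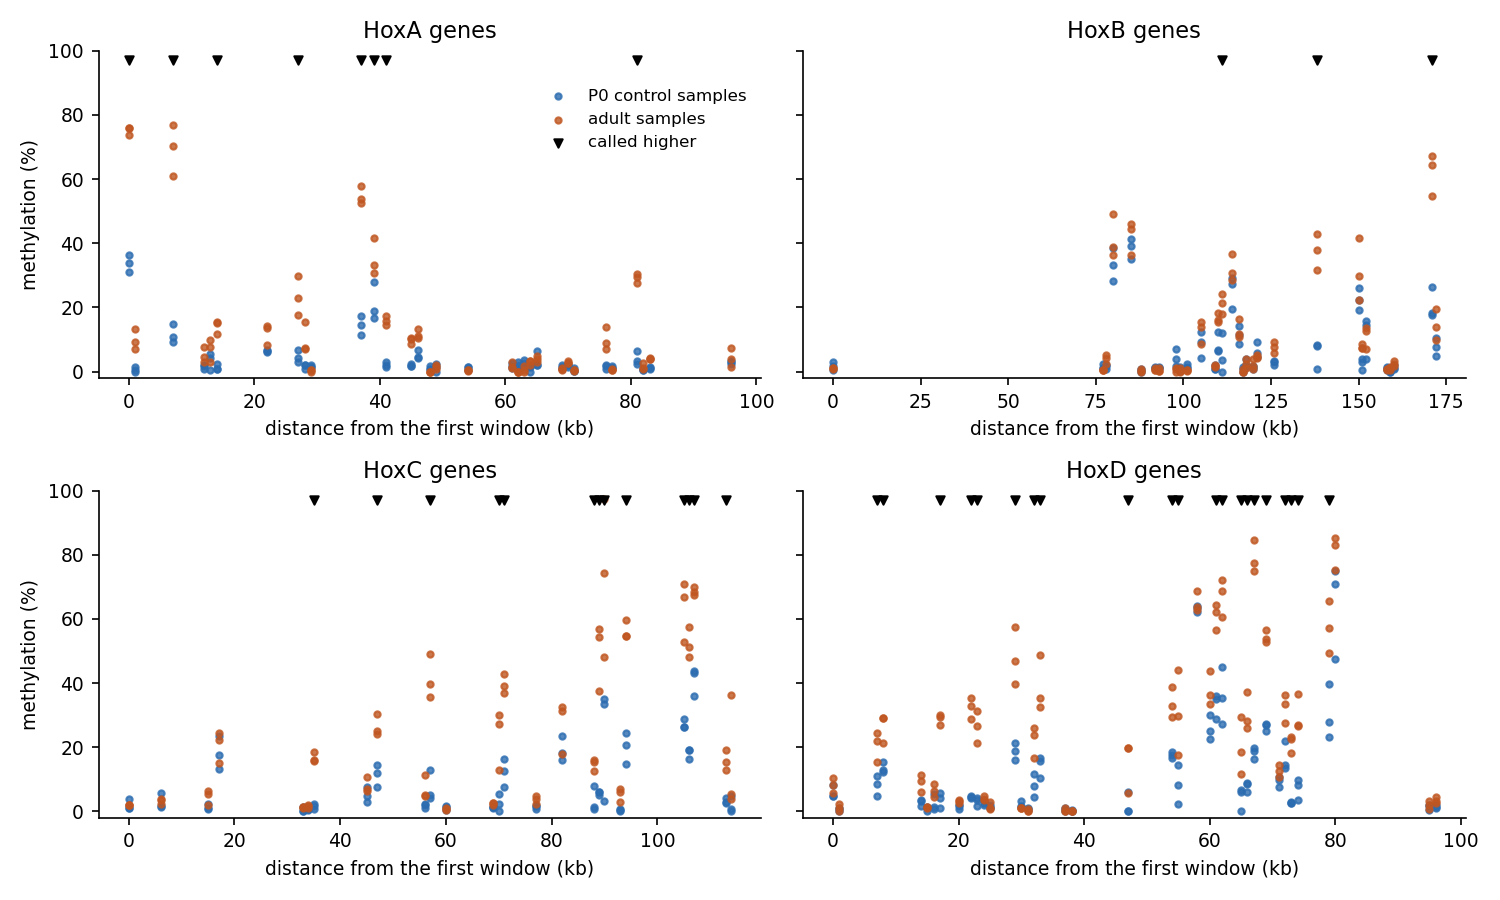
Methylation (percent) of every measured Hox window by its distance from the first window of its cluster (kilobases), with 1 point per sample (blue controls, orange adults) and triangles over windows called higher. Called windows were spread along HoxC and HoxD and lay at 111, 138 and 171 kilobases in HoxB, while windows near 0% in both groups lay between them.

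The largest Hox differences lay away from the starts. A window inside Hoxd3 (chromosome 2, 74734001 to 74735000) averaged 18.3% ± 1.78 in controls and 79.0% ± 5.06 in adults (SD, n = 3 each; adjusted p 2.88e-09 in the quasi-binomial model). In Hoxa3 (chromosome 6, 52170001 to 52171000) the controls were at 14.8%, 9.30% and 10.7% and the adults at 76.9%, 70.4% and 60.8%. The window at the start of Hoxa2, a hindbrain patterning gene, had 33.9%, 30.9% and 36.2% in controls and 75.9%, 73.8% and 75.8% in adults (chromosome 6, 52163001 to 52164000; adjusted p 1.57e-09). At the start of Hoxa11, one of the Hox11 genes of nephron progenitors, the controls had 2.41%, 6.49% and 3.38% and the adults 27.5%, 29.6% and 30.4% (adjusted p 2.89e-09). Hoxa11 RNA was present in the newborn, at 39.0, 43.5 and 34.1 CPM. A run of 4 called windows could be joined over Hoxc6 (chromosome 15, 103009001 to 103013000), where the mean was 13.1% ± 3.38 in controls and 46.2% ± 5.77 in adults (SD, n = 3 each).

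Other developmental regulators were chosen by symbol (Pax, Lhx, Sox, Fox, Wnt, Bmp, Fgf and similar families, without Hox). They held 1091 windows, of which 75 (6.87%) were higher and 7 (0.642%) lower. Without regard to level, the share of increases was near the background and that of decreases was below it. Of the 1091 windows, 578 were under 5%, where no call is possible, as were 19072 of all 83919 windows. Among those of 5% to 20%, 33 of 177 were higher and 1 lower, beside 15.2% and 3.67% of all windows at that level. From 20% to 50%, 28 of 88 were higher and 0 lower, beside 23.4% and 12.7%. From 50% to 80%, 11 of 110 were higher and 4 lower, beside 10.6% and 13.1%. The smallest p of the list was in Wnt5a, which encodes a secreted Wnt ligand (chromosome 14, 28509001 to 28510000). It had 2.96%, 2.56% and 3.56% in controls and 29.3%, 32.7% and 32.4% in adults, with an adjusted p of 1.38e-11.

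Most called windows of the cytochrome genes lay in genes of retinoic acid breakdown. Cyp genes held 98 windows, of which 13 were higher and 0 lower, and 9 of the 13 lay in the 20 windows of Cyp26 genes, a subset singled out after its values were seen. Cyp26 enzymes clear retinoic acid, the signal that also governs Hox genes. A window at the start of Cyp26c1 (chromosome 19, 37686001 to 37687000) had 9.35%, 4.92% and 3.93% in controls and 65.6%, 67.9% and 63.9% in adults, a difference of 59.7 points (adjusted p 5.88e-09). Together with its neighbors, which reach into Exoc6, it formed a run of 4 called windows that went from 12.8% ± 4.36 to 57.0% ± 0.695 (SD, n = 3 each). At the start of Cyp26a1 the controls had 5.83%, 3.60% and 3.30% and the adults 40.5%, 31.5% and 28.4%. Cyp26c1 RNA was near absent in the newborn, at 0.0297, 0.0586 and 0.147 CPM.

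Nephron progenitor genes, which mark the self-renewing Six2 population that is used up after birth, held 71 windows, of which 6 were higher and 3 lower. Six2 itself, the transcription factor that maintains these cells, had 3 measured windows near its start and none was called. The window over the start averaged 0.952%, 1.54% and 1.32% in controls and 1.18%, 1.33% and 1.87% in adults. A window further along the gene (chromosome 17, 85681001 to 85682000) had 10%, 13.8% and 3.49% in controls and 26.4%, 25.4% and 24.4% in adults (adjusted p 0.0473), which is just inside the threshold. In Wt1, a zinc finger regulator of progenitors and podocytes, a window went from 27.6%, 34.3% and 27.7% to 62.9%, 72.2% and 51.5%. Crym, a thyroid hormone binding protein, went the other way, from 67.7%, 53.9% and 87.5% to 22.3%, 20% and 19.2%.

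Early nephron genes, which act as progenitors turn into epithelium, had 17 higher windows of 105 (16.2%) and 2 lower ones, and 9 of 15 genes held an increase. Lhx1, a LIM homeobox factor of the renal vesicle, had 3 higher windows in a row. In the middle one (chromosome 11, 84520001 to 84521000) the controls were at 3.49%, 4.40% and 5.76% and the adults at 37.1%, 38.7% and 39.6% (adjusted p 2.73e-09). Pax2, a paired-box factor of the early kidney, had 6 higher windows, and 2 of them (chromosome 19, 44835001 to 44837000) went from 4.76% to 36.1% and from 4.50% to 40.3%. The Notch receptor gene Notch2 had windows in both directions, with 26.8% going to 53.0% in one and 85.8% to 44.5% in another. None of the 19 windows near the starts of these genes was called, where 2.48% lower and 3.06% higher of all start windows were.

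Stromal genes had 15 higher windows of 74 (20.3%) and 4 lower. Of their 15 measured genes, 6 held an increase and 4 a decrease. Meis1, a homeobox factor of the renal interstitium, had a run of 4 higher windows (chromosome 11, 19013001 to 19017000), whose mean was 6.37%, 6.49% and 3.13% in controls and 29.0%, 30.5% and 28.9% in adults. Ntn1, which encodes the guidance molecule netrin, held another 5. At the start of Tcf21, a basic helix-loop-helix factor of stroma and podocytes, methylation went from 14.3% ± 2.67 to 39.5% ± 3.54 (SD, n = 3 each). A single window each of Col1a2 and Col3a1, which encode fibrillar collagens, was lower, the first at 88.6% in controls and 52.8% in adults and the second at 84.0% and 59.8%. None of the 6 windows of Col1a1, another fibrillar collagen gene of the list, was called.

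Proximal tubule genes encode the transporters and enzymes that reclaim most of the filtrate. Of 111 windows in 34 measured genes, 26 (23.4%) were lower in adults and 3 were higher, and 17 genes held a decrease. The windows averaged 59.4% in controls and 51.4% in adults, with a median difference of -3.09 points. Among those of 50% to 80%, 20 of 40 were lower, against 13.1% of all windows at that level. Of the 24 windows near their starts, 5 were lower and 0 higher.

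Several of these decreases lay in transporter genes. All genes with Slc symbols, by comparison, held 66 lower (6.20%) and 51 higher (4.79%) of 1064 windows, near the background. Slc3a1 had 93.6%, 89.3% and 86.6% in controls and 34.9%, 44.6% and 44.5% in adults in the window over its start (chromosome 17, 85028001 to 85029000), with all 11 positions lower and an adjusted p of 1.61e-08. Slc9a3, the apical sodium-proton exchanger, had 81.8%, 88.4% and 86.8% in controls and 43.8%, 33.0% and 29.1% in adults in one window (chromosome 13, 74140001 to 74141000). Another window of Slc9a3 was higher, going from 11.3% to 29.5%. Slc34a1, the main sodium-phosphate cotransporter, had 89.0%, 79.1% and 86.6% in controls and 45.1%, 53.5% and 36.0% in adults (chromosome 13, 55408001 to 55409000; adjusted p 9.81e-07). In Slc6a19, the neutral amino acid transporter, the values were 90%, 87.5% and 76.9% against 34.5%, 55.4% and 39.7%. No adult reached the lowest control in any of these 4 decreases.

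Slc4a4, the basolateral sodium-bicarbonate cotransporter, had 2 lower and 2 higher windows. Its lower window with the smaller p (chromosome 5, 88931001 to 88932000) went from 68.2%, 74.7% and 78.3% to 28.2%, 31.9% and 30.7%. In the lower window at one of its starts the adults were at 77.8%, 34.4% and 35.8%, so adult 1 stood far from the other adults. The glucose transporter genes moved as well, Slc5a1 from 28.5% to 6.59% and Slc5a2 from 95.8% to 80.4%.

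A regulator and several enzymes of this segment had decreases as well. Hnf4a, the nuclear receptor that drives proximal tubule genes, had 80.2%, 82.8% and 87.6% in controls and 29.9%, 41.9% and 43.1% in adults at a start (chromosome 2, 163547001 to 163548000; adjusted p 1.81e-06). A second window of Hnf4a had 86.9%, 86.0% and 71.7% against 10.3%, 53.8% and 39.2%, a wide spread among adults. The third lower window of Hnf4a went from 85.3% to 74.1%. Gatm, which makes the creatine precursor, went from 89.3% to 51.0% in one window and from 89.6% to 49.8% in another. Miox, which breaks down myo-inositol, went from 84.7% to 52.7%. Pck1, a gluconeogenic enzyme, went from 43.3% to 19.6%. In Lrp2, the endocytic receptor megalin, a window had 66.7%, 79.6% and 79.3% in controls and 38.8%, 40.9% and 39.4% in adults.

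Newborn libraries already held these transcripts at varying levels. Hnf4a was at 159, 100.9 and 271 CPM, Slc3a1 at 101.1, 84.4 and 167 CPM, and Slc34a1 at 419, 369 and 1662 CPM. The summed level of the proximal tubule list ran from 4548 to 12808 CPM over the 3 libraries. The labels do not tie the RNA libraries to the RRBS samples, and the part of a different amount of mature tubule between samples was not tested.

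**Figure D5:**
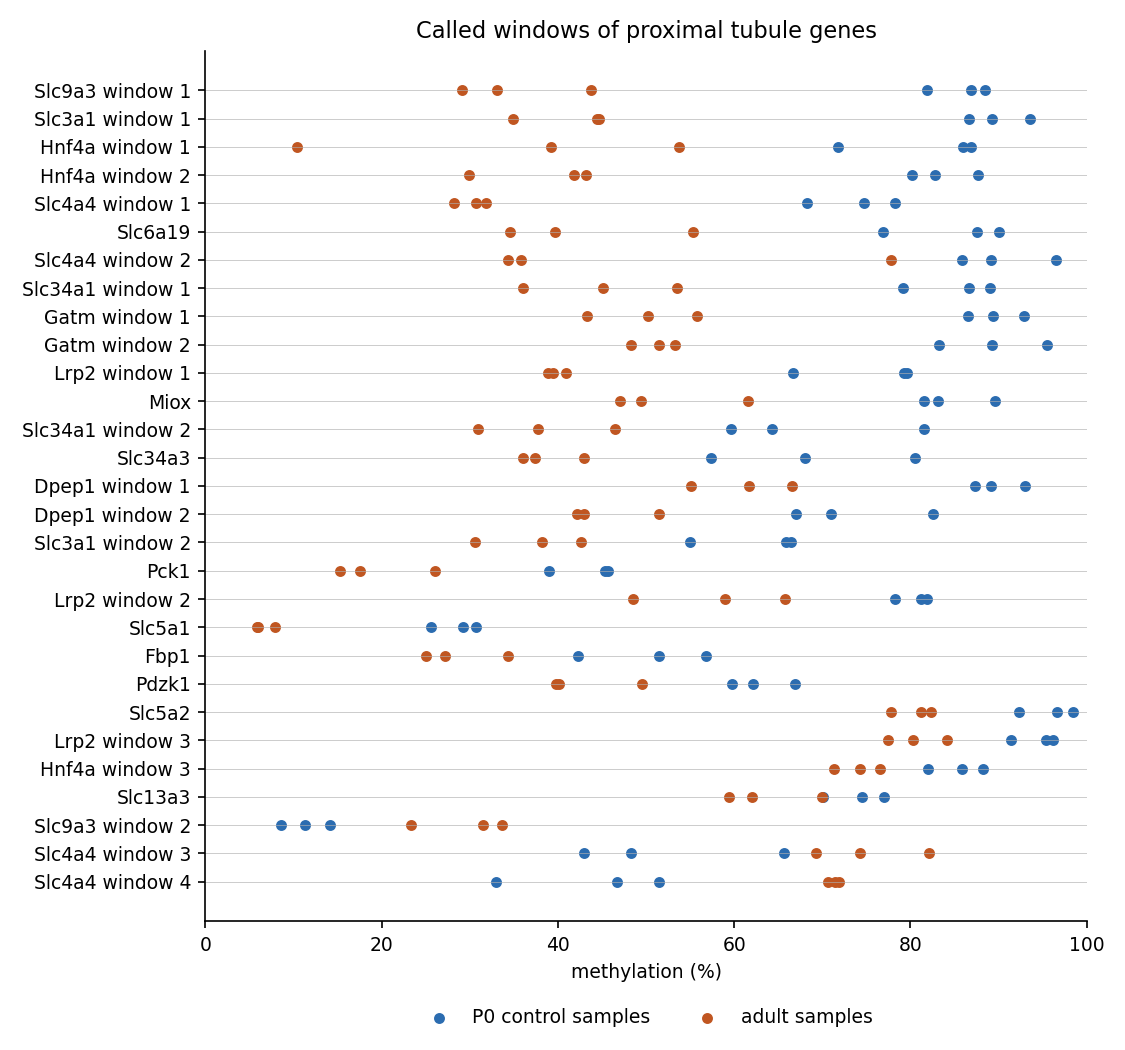
Methylation (percent, x axis) of each called window of proximal tubule genes, with 1 point per sample (blue controls, orange adults), ordered from the largest decrease to the largest increase. Adults lie left of controls in 26 windows and right of them in the 3 lowest rows; adult 1 stands apart in window 2 of Slc4a4.

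Other nephron segments had calls in both directions at shares closer to the background. Loop and distal tubule genes held 7 lower and 6 higher windows of 77. Cldn19, a tight junction protein of the thick ascending limb, went from 69.3% to 29.0%, and Umod, which encodes uromodulin, from 53.0% to 34.0%. At the start of Cldn10 the controls were at 1.26%, 1.03% and 1.87% and the adults at 18.3%, 25.7% and 29.9%. Podocyte genes held 7 lower and 9 higher of 122. Nphs1, which encodes the slit diaphragm protein nephrin, fell at its start from 42.5%, 37.0% and 37.1% to 30.5%, 25.5% and 22.1% (adjusted p 0.0124). That call was lost without adult 3, with a difference of -10.8 points (adjusted p 0.14), and with at least 20 calls per position, with -5.01 points (adjusted p 0.478).

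Collecting duct genes had 1 lower and 5 higher windows of 64, and ureteric bud genes 2 lower and 10 higher of 126. Of these 10, 6 were in Pax2 and 1 in Sox9, genes that also stand in the early nephron list. Transcription factors of the tubule held 10 lower and 11 higher of 144, of which 3 of the lower ones were the Hnf4a windows above. Tfcp2l1, a factor of distal segments, went from 84.1%, 87.8% and 89.1% to 43.1%, 47.4% and 48.3%. Emx1, a homeobox factor, went from 1.48%, 1.16% and 0.551% to 26.8%, 37.7% and 31.1%. The renin-angiotensin genes had 12 windows and no call in either direction, beside 4.97% lower and 6.02% higher of all windows.

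Among other cell types of the kidney, endothelial genes held 8 lower and 1 higher of 96 windows. Flt1, a VEGF receptor, had 3 of the decreases, and in Erg, an endothelial transcription factor, a window went from 81.6%, 77.4% and 87.2% to 49.3%, 50% and 49.5%. Leukocyte genes had 3 lower and 3 higher of 43. Of their 14 measured genes, 2 held a decrease and 1 an increase. A window of Csf1r, the receptor of macrophage growth factor, was at 79.7%, 83.7% and 89.6% in controls and 46.9%, 55.6% and 50.4% in adults. All 3 increases lay in Runx1. Erythroid genes had 0 lower and 5 higher of 51. These windows lie in genes that other cells carry too, and the part of a changed cell mixture was not tested.

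Fetal growth genes had mixed directions. The oncofetal list held 10 higher and 4 lower windows of 96, and Hmga2, a chromatin protein of proliferating embryonic cells, had 5 of the increases and 1 decrease. In one of them (chromosome 10, 120418001 to 120419000) the controls were at 22.4%, 26.3% and 15.4% and the adults at 68.8%, 57.7% and 66.8% (adjusted p 2.2e-07). Lin28b, an RNA-binding regulator of developmental timing, had 2 windows near its start and no call. Imprinted genes held 23 higher and 9 lower windows of 182 (12.6% and 4.95%), and 6 of the increases lay in Kcnq1, a potassium channel gene. The largest of these went from 30.2%, 40.7% and 35.8% to 71.3%, 67.2% and 72.1%.

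At Igf2, the imprinted growth factor of fetal life, the windows over its downstream starts were under 4% in every sample and were not called. A window at its upstream start went from 29.8%, 28.4% and 34.3% to 48.1%, 42.4% and 52.0% (adjusted p 0.0091), a call that was lost without control 2 (15.5 points, adjusted p 0.0821) or adult 3 (14.4 points, adjusted p 0.109). At the start shared by Plagl1 and Hymai, both imprinted, methylation fell from 69.3%, 66.8% and 71.2% to 61.0%, 58.9% and 42.2%. Plagl1 had calls in both directions, with 1 lower and 1 higher of 3 windows and differences from -15.1 to 38.5 points. No window was measured at the start of H19, Umod or Slc34a1.

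The methylation machinery had 3 higher and 4 lower windows of 96. At a start of Dnmt3a, a de novo methyltransferase, the controls had 5.71%, 1.09% and 1.65% and the adults 39.1%, 25.7% and 25.2% (adjusted p 0.000172). Tet1, a demethylating dioxygenase, had a window that went from 67.0% to 34.0% and another from 28.3% to 56.8%. The 2 windows near starts of Dnmt1 were not called, one at 1.08%, 1.34% and 1.11% in controls and 0.473%, 0.281% and 0.243% in adults. Cell cycle genes had 4 higher and 1 lower of 68, with none of their 34 start windows called. Germline genes, whose starts are methylated in somatic tissue, had 2 higher and 3 lower of 62 and no call among 34 start windows. Of all start windows, 2.48% were lower and 3.06% higher, so few calls could be looked for among 34 in either list.

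Windows over all genes were then ranked by difference among called windows with at least 5 positions and no overlap between the groups, 1 per gene, in or within 5000 bases of a gene that is not a clone name. Windows outside this rule, such as that of Hoxd3 with 4 positions, could differ by more. In this ranking the largest decrease lay in Dst, which encodes a cytoskeletal linker (chromosome 1, 34240001 to 34241000). It had 81.3%, 82.5% and 86.7% in controls and 18.4%, 12.1% and 11.8% in adults, a difference of -69.4 points (adjusted p 6.76e-10). Rbm47, an epithelial RNA-binding protein, followed with 74.0%, 70.5% and 85.0% against 12.8%, 8.23% and 9.29%. Mgat1, an enzyme of N-glycan processing, had 100%, 95.7% and 94.7% against 36.9%, 29.7% and 34.4%. The next 7 were in Pitpnc1, Klf3, Klhdc7a, Tkt, Neat1, Morn1 with Rer1, and Park7, with differences from -62.8 to -52.5 points. None of these 10 windows lay near an annotated start of its named gene.

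The largest increase in the same ranking lay in Ehbp1, which encodes an endocytic adaptor (chromosome 11, 22007001 to 22008000). It had 13.7%, 15.2% and 14.6% in controls and 79.4%, 74.4% and 76.9% in adults, a difference of 62.4 points (adjusted p 1.12e-10). Slc2a9, a urate transporter of the tubule, followed with 59.8 points, but control 2 was at 53.0% and the other controls at 12.7% and 13.8%. The window of Cyp26c1 came next, and then Atg7, an autophagy enzyme, with 15.8%, 22.6% and 26.5% against 86.4%, 81.5% and 72.3%. Rai1, Rps6ka4, Smug1, Fignl2 and the pair Lrba and Mab21l2 completed the 10 with Hoxa3, with differences from 53.7 to 55.5 points. The windows of Cyp26c1, Fignl2 and Mab21l2 were near their starts.

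Most called windows had no called neighbor of the same direction. Only measured windows could be joined, and how many called windows had a measured neighbor was not counted. Joined with called neighbors of the same direction, the lower windows formed 4059 regions and the higher ones 4815. The longest lower region was a run of 5 windows at AY036118, a non-coding RNA annotated next to a ribosomal RNA pseudogene (chromosome 17, 39844001 to 39849000). It had 30.9%, 36.4% and 33.4% in controls and 33.2%, 7.98% and 22.03% in adults, with up to 353050 calls in a window. Adult 1 lay within the control range. Without adult 2 none of the 5 windows was called and the difference was -5.95 points, and without control 2 only 2 of them were. The runs of 4 windows over Meis1 and Cyp26c1 kept at least 3 called windows without any single sample, and so did that over Hoxc6.

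The KO samples are the other newborn group with floxed alleles. They could be read in 2562 of the lower windows, where the means were 69.6% in controls, 48.5% in adults and 50.3% in KO. In 3144 of the higher windows the means were 35.6%, 56.4% and 28.3%. Over all 48688 windows read in all 9 samples they were 52.4%, 52.5% and 39.0%. The KO mean was thus below the control mean in both sets. The adult and KO comparisons share their control samples, and no test was made between them.

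Single positions with differences over 80 points numbered 166, with 108 higher and 58 lower in adults, in 158 windows. For 118 of them the mean difference of the other positions in the window was within 10 points. The KO could be read at 91 of them, and at 87 it lay nearer to the controls. Over 207 bins of 10 megabases with at least 150 windows, the share of called windows ran from 1.76% to 19.7%, with a median of 11.0%. The bin of chromosome 9 that holds Dnmt1 had 7.52%. By chromosome, the share of higher windows ran from 5.28% on chromosome 1 to 7.75% on chromosome 19.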

How the data were processed

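Methylated and unmethylated calls per cytosine position were deposited as raw counts by the authors, 1 file per sample, together with the percent of methylated calls at the position, which the authors derived from them. Trim Galore and Bismark, and STAR 2.4.1d and HTSeq 0.6.1 for RNA-seq, are named per the submitters' processing notes, which give mm10/GRCm38 as the build. All 67622 measured autosomal positions inside the RefSeq promoter stretches (GRCm38.p6) lay at a CG. Total calls were 36811631 to 88765177 in controls and 39114862 to 74768086 in adults. Counting error at 50% is 15.8 points for a position with 10 calls, against 4.03 points for a window with 154 calls, the lowest median. The window value takes all calls as independent. Positions in 1 fragment share reads, so it is a lower bound. These cover counting error only, since RRBS reads carry no molecular identifiers here.

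Calls were summed per window. Each window's counts were then fitted by a quasi-binomial logistic model (Python 3.11.15, numpy 2.4.6, scipy 1.17.1). As in limma, window dispersions were shrunk to 1 prior (16.7 degrees of freedom, dispersion 3.21), with a floor of 1. The scripts were tested on simulated data. Class means and shares were compared with two-sided exact permutation tests over samples. Deposited RNA counts of the P0 controls were scaled to CPM for the markers only.

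The members and gene lists were chosen with earlier results of these data known. Named windows were the 10 largest changes each way with at least 5 positions and no overlap between groups, 1 per gene and within 5000 bases of one that is not a clone name. Added to these were the called window with the smallest p in each of 22 lists, the longest regions, and the starts of 8 genes. Of these, 1 window is not reported here. The planned sequences were replaced, because few of the largest changes lay at starts. Alternatives covered the replicate block, dispersion, model, thresholds, coverage, window size, depth, chromosomes and each sample left out, with limma 3.58.1 in R 4.3.3 as another model. Exons, repeats and CpG islands were not analysed here.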

Additional observations from a re-analysis of the deposited data

Results flagged for a closer look

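Some signals lay outside the autosomal windows. Chromosome Y took 0.113% of calls in adults, against 0.0234% in controls and 0.0213% in KO, and chromosome X took 1.38% in adults against 2.36% in controls. The 1560 windows of chromosome X were at 66.2%, 65.8% and 65.3% in controls and 55.6%, 54.9% and 55.01% in adults. The groups were apart by -10.6 points (adult minus control; exact permutation p 0.1, the smallest possible), with 560 lower and 35 higher windows. Mitochondrial DNA took 0.754% of calls in adults, against 0.246% in controls and 0.643% in KO. The sexes are not given in the sources used here. The part of these differences in the autosomal values was not tested.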

How the results depend on the processing

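Of the recomputed counts and means, 243 had the same direction and call (counts within 1.5 times), 33 were weaker, 7 stronger and 14 reversed. Counts below are lower and higher windows. They were 6554 and 7646 without overdispersion and 6540 and 7630 by Fisher's exact test on pooled calls. By limma on logits they were 1387 and 1833, with 29 higher Hox, 14 lower proximal tubule and 11 higher early nephron windows. With the dispersion of each window unmoderated, this quasi-binomial test called 0 windows either way, and 0 in each of these lists and the stromal list, while 17578 windows had an unadjusted p under 0.05. At 25 points or more the counts were 1373 and 1501, with 22 Hox, 17 proximal tubule, 6 early nephron and 4 stromal windows. With all 9 RRBS samples, which leave fewer windows, they were 2073 and 2638, with 25 Hox, 15 proximal tubule and 7 stromal windows. At 20 calls per position they were 2282 and 2866, with 27, 11, 11 and 7 in the Hox, proximal tubule, early nephron and stromal lists, and at 5 calls the proximal tubule list had 41. With 5 positions per window they were 1792 and 2431, with 12 proximal tubule windows. Single positions gave 10693 and 12918, and windows without their position of largest difference, an alternative added after the data were seen, 2298 and 2692.

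The mean difference over windows, 0.085 points, turned to -0.0412 points with windows of 2000 bases, -0.108 with all chromosomes and -6.91 weighted by calls. It was -3.18 with the deepest positions also left out, which was added later. The class of 3 to 4 positions turned from -0.0157 to 0.0692 points at 20 calls. The cause of these changes was not tested.

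With each sample left out in turn, lower windows numbered 3169 to 4023 and higher windows 3937 to 4695. The lists held 42 to 45 Hox, 23 to 27 proximal tubule, 15 to 19 early nephron and 12 to 15 stromal windows. The mean difference ran from -0.101 to 0.206 points, that of windows with 3 to 4 positions from -0.258 to 0.145, that outside genes from -0.117 to 0.359 and that of windows at 90% to 100% from -0.423 to 0.0417. Uncalled starts also changed sign. Six2 ran from -0.0158 to 0.328 points in one window (-0.0951 at 5 calls) and from -0.0499 to 0.865 in another, and Lin28b from -4.38 to 1.12 in one and from -0.396 to 0.741 in another. Of the named windows, limma on logits lost the calls in Gata2, Ank1, Ccnb2, Igf2 and Nphs1.

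With the replicate number as a block the counts were 4220 and 5159, with 46 Hox, 27 proximal tubule, 17 early nephron and 16 stromal windows. Same-numbered samples did not deviate together (correlations from -0.00036 to 0.0044), so the numbers were not used as pairs. For a window of 154 calls, the counting error at 50% is at least 4.03 points, the value for independent calls. The shallowest control had a median of 8 calls per position.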

Other observations

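Single families, most of them within the developmental regulators above, were counted by symbol prefix after the data were seen. Genes whose symbols begin with Sox had 17 higher and 0 lower windows of 144, and those with Fox 22 higher and 6 lower of 200. Irx genes had 5 higher and 0 lower of 31. Nkx genes, at 9.04% in controls and 9.86% in adults, had 1 higher window of 52 and none lower, and Dlx genes 1 of 25. Those with Zfp, zinc finger genes, had 47 higher and 39 lower of 944. No window of the 29 in olfactory receptor genes was called, with a mean of 80.1% in controls and 80.5% in adults. These family counts stand beside 4.97% lower and 6.02% higher of all windows. Among all windows of 80% to 100% the shares were 1.86% and 1.24%, so few calls could be looked for among the 29.

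A single position on chromosome 2 took 6.15% to 7.55% of all calls in controls and 2.89% to 3.32% in adults. With clone names left out, no protein-coding or long non-coding RNA gene lay within 5000 bases of its window. Its window was at 93.6% ± 0.215 in controls and 94.0% ± 0.734 in adults (SD, n = 3 each) and was not called.

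The 10-megabase bins with the largest shares of called windows were the one from 120 megabases on chromosome 14, with 7 lower and 24 higher of 157 windows, and the one from 50 megabases on chromosome 19, with 27 lower and 60 higher of 478. The bin from 100 megabases on chromosome 15, which holds the HoxC genes, had 12 lower and 55 higher of 369.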
